A study of Mus musculus with 18 samples.

Results

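The genes described here are a list of 46 symbols of the cell cycle and of mitosis, grouped by role, out of 19454 genes with a row of their own on the array. A row was found for 45 of them, and the 46th, Ccnb1, was not analysed here. Signal high enough for testing was present for 41, among 10258 such genes in all. Total RNA on 18 arrays (Affymetrix Mouse Gene ST 1.0) came from macrophages grown out of C57Bl/6 bone marrow in medium with M-CSF, the growth factor that drives marrow precursors to become macrophages. The KO cells came from TTP-/- mice, which lack tristetraprolin, a protein encoded by Zfp36 that binds AU-rich sequences in messenger RNAs and speeds their decay. The WT cells came from wild type mice. All cells, of either genotype, were given LPS, a bacterial trigger of inflammation, for 3 h. They were then moved to new medium holding actinomycin D, which stops transcription, together with SB203580, an inhibitor of the kinase p38, and RNA was taken at 0, 45 or 90 min. Each of the 6 groups of genotype and time has 3 arrays, and the labels do not say whether the 3 came from separate mice or cultures, so the p-values measure only the spread between these arrays. Time without transcription and time with the p38 inhibitor are the same variable in this design, and every group carried LPS. The TTP-/- label names a deletion in the whole animal, and the cells were differentiated in culture.

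Cells divide by passing through G1, DNA replication, G2 and mitosis, and the genes of each step are switched on in order. E2F factors drive the genes of DNA replication, and a complex around MuvB with B-MYB or FOXM1 drives those of G2 and mitosis through a promoter element called the cell cycle genes homology region. M-CSF makes marrow macrophages divide, and LPS is known to halt their cycle. In a pool of cells, fewer cells in cycle and less RNA per cell cannot be told apart. After transcription is stopped no new RNA is made, and since the arrays are normalised, the signal of a gene shows its loss relative to that of other RNAs.

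The promoters of 37 of the 46 genes were present in the RefSeq promoter table for the mouse build GRCm38.p6, which runs from 250 bases before to 50 bases after each start. The letters TTTGAA, the core of the cell cycle genes homology region, were searched on both strands and were found in 15 of the 37 promoters (40.5%), against 20.2% of the 27025 genes in the table. They were found in 12 of the 17 promoters of G2 and mitosis genes and in 3 of the 20 promoters of G1 and replication genes. The letters TTTNNCGC of an E2F site stood in 13 of 37 (35.1%), against 5.93% of all genes. They stood in 2 of the 17 G2 and mitosis promoters and in 11 of the 20 others. CCAAT, the box bound by NF-Y, was present in 29 of 37 (78.4%), against 41.1% of all genes. A match describes the letters in this window and is not a measured binding site. No match to TTTGAA can at once be a match to TTTNNCGC, since a fixed letter differs.

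The next 6 stretches run from 60 bases before to 50 bases after the start. Aurka, Cdc45, Bub1b and Cdc25a are shown because they were lower at 90 min in the average over genotypes when the run of arrays was a block, Ccnb2 because it was set between genotypes, and Plk1 as a mitotic kinase whose signal varied more between arrays. Capitals mark TTTGAA and CCAAT on either strand. The start that the table uses for Aurka lies 316 bases inside the annotated gene, and that for Cdc25a 61 bases inside.
Aurka, chr2:172370521-172370630, minus strand: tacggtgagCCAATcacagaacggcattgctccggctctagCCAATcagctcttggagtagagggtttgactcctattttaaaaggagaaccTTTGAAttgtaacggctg
Bub1b, chr2:118598151-118598260, plus strand: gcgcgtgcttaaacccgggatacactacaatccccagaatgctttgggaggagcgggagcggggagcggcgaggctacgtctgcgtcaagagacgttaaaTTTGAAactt
Ccnb2, chr9:70421505-70421614, minus strand: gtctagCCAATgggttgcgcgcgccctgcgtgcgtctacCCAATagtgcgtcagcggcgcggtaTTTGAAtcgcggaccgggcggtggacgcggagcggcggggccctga
Plk1, chr7:122159375-122159484, plus strand: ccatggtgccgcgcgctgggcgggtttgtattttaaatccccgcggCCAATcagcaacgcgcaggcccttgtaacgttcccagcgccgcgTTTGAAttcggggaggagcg
Cdc45, chr16:18811923-18812032, minus strand: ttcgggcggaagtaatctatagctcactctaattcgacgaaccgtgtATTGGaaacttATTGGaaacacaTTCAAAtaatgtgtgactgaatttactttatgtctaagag
Cdc25a, chr9:109875519-109875628, plus strand: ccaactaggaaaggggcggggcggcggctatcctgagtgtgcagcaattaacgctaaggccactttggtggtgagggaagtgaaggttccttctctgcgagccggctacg
Aurka, Ccnb2 and Plk1 carry CCAAT upstream of TTTGAA in these stretches, and Cdc45 carries both on the opposite strand. Cdc25a carries neither in its stretch.

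Zfp36, the gene that the genotype names, had log2 intensities of 6.25, 6.75 and 6.81 in KO cells at 0 min, against 7.95, 7.86 and 7.12 in WT cells. At 45 min it had 5.58, 5.11 and 5.36 in KO cells, against 4.86, 4.93 and 4.47 in WT cells, and at 90 min 4.58, 5.97 and 4.42 in KO cells, against 4.11, 4.10 and 4.15 in WT cells. The KO arrays were all below the WT arrays at 0 min and all above them at 45 and at 90 min, and over all times KO minus WT was 0.14 ± 0.18 (limma adjusted p = 0.815). Signal remained in KO cells, and the labels do not say which part of the gene was removed, so the row does not check the genotype. All 8 macrophage markers passed the limit of signal, and their summed intensity lay between 10765 and 11900 over the 6 groups. The limit was passed by 1 of 7 marrow progenitor markers (summed intensity 35.8 to 45.0), 1 of 7 neutrophil markers (28.6 to 32.6) and 5 of 8 fibroblast markers (71.4 to 88.9). It was passed by 0 of 5 markers of T cells, 0 of 4 of B cells and 0 of 3 of erythroid cells. Sample titles carry numbers in 2 runs: run A holds replicate 3 of every group (6 arrays) and run B holds replicates 1 and 2 (12 arrays). The labels do not call these runs a batch, and all 6 groups are in both, and the calls gained with the run as a block or within run B are named.

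Most of the genes gave a signal in these LPS-treated macrophages. The 5 with the highest mean log2 intensity over all arrays were Pcna at 9.62, the clamp that holds DNA polymerase on its template, Cdk4 at 8.52, a G1 kinase, Rrm1 at 7.999, a subunit of ribonucleotide reductase, Bub3 at 7.89, of the spindle checkpoint, and Mcm6 at 7.78, of the replicative helicase. Signals of different genes come from different probes, so this order is not an order of RNA amounts. Pcna has 2 rows on the array with almost the same values (means 9.62 and 9.61), and a near-identical copy cannot be told apart from the gene here. The limit for testing was a highest group mean of at least 3.03, the median over all rows. Ccne2, a cyclin of the G1 to S step, stood just above it with a highest group mean of 3.40, and it was the 1 gene of the 41 with a group mean below the limit. The 4 genes below it were E2f2 at 2.99, Cdc25c at 2.87, Cdc6 at 2.83 and Ttk at 2.81, and they were not tested. Together with Ccne2 these were also the 5 with the lowest mean signal, from 3.20 for Ccne2 down to 2.56 for Cdc6.

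**Figure D1:**
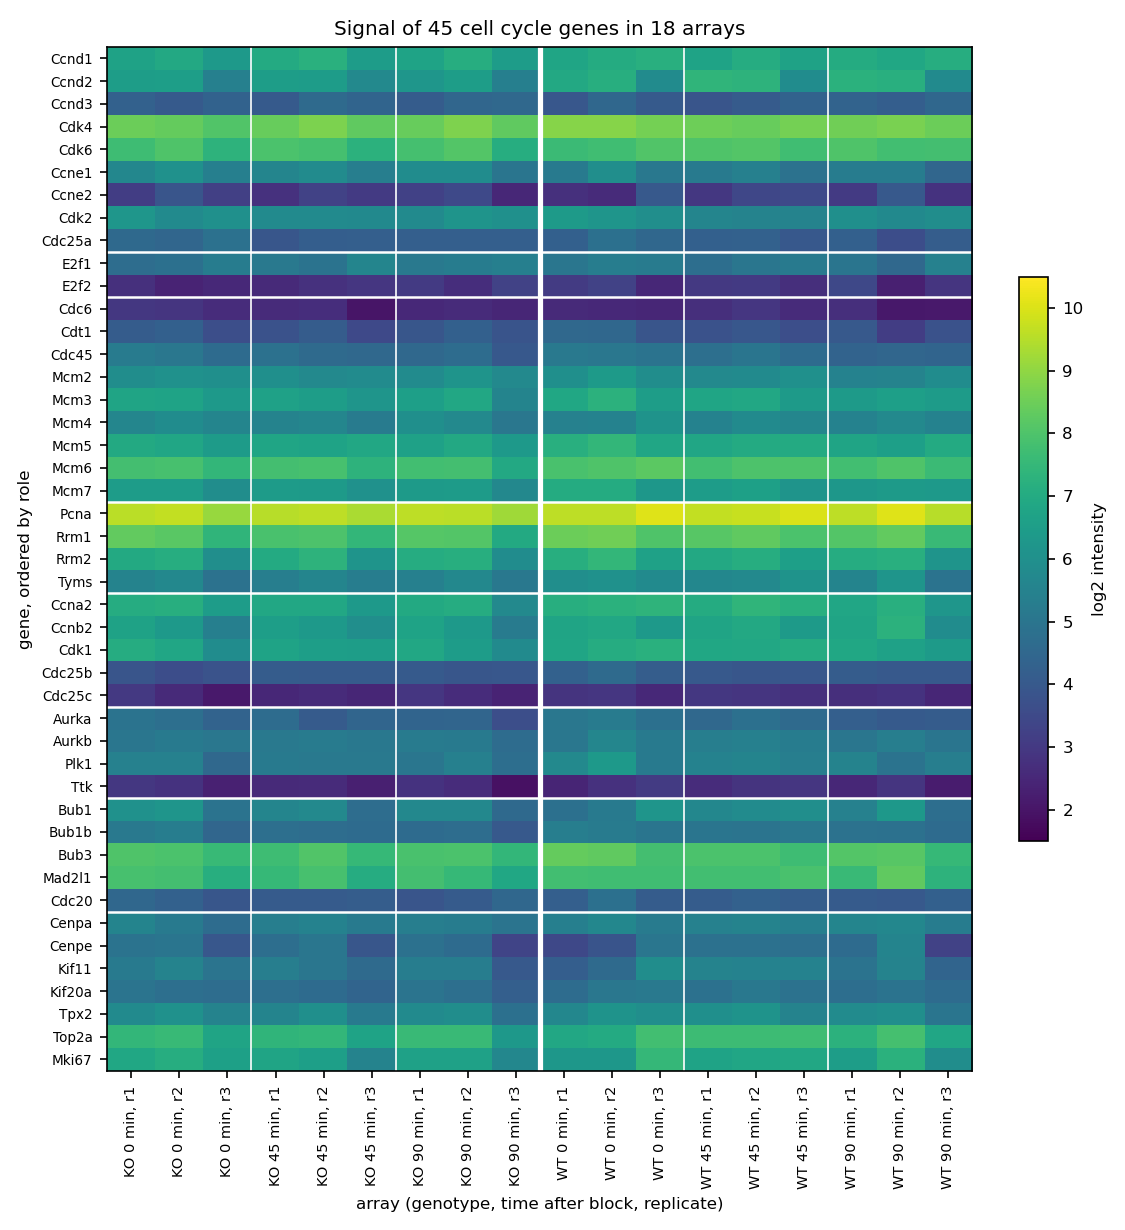
Log2 intensity (colour) of the 45 genes with a row (down, grouped by role, with white lines between roles) in the 18 arrays (across, KO left of WT, by time and replicate, r1 to r3). The KO 90 min replicate 3 column is dark for many genes: its mean over the 41 tested genes was 5.36, the lowest of the 18 arrays.

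The mean log2 intensity over the 41 genes was 5.36 in KO 90 min replicate 3, 5.62 in KO 0 min replicate 3 and 5.64 in KO 45 min replicate 3. The highest was 6.25, in WT 0 min replicate 2. The 3 KO arrays of run A were therefore the lowest for this gene group, and WT 90 min replicate 3, also of run A, came next at 5.67. The mean over all tested genes was between 5.12 and 5.35 in every array.

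At 90 min against 0 min, averaged over both genotypes, Aurka and Cdc45 were lower, and none of the 41 was higher. Aurka encodes Aurora A, the kinase of centrosome maturation and spindle assembly, and Cdc45 encodes a part of the helicase that opens DNA at replication forks. These 2 lower calls compare with 2.28% of all tested genes called lower and 0.0585% called higher in the same comparison. Over the 41 genes the change was negative in 34, beside 4662 of all 10258 tested genes. Its median was -0.16 on the log2 scale, beside 0.02 over all tested genes. For replicates 1, 2 and 3 taken singly it was -0.003, -0.07 and -0.34, with 21, 25 and 31 of 41 negative. Over all tested genes these medians were 0.04, -0.02 and -0.04. The fall of the group was thus largest in replicate 3, of run A, and near 0 in replicate 1. In WT cells alone the 3 medians of the 41 were -0.04, -0.19 and -0.41, and in KO cells -0.10, -0.04 and -0.26. With the run as a block 4 of the 41 were lower, as Bub1b and Cdc25a joined, beside 4.39% of all tested genes. In WT cells alone 1 gene of 41 was lower, Aurka, beside 1.22% of all genes called lower and 0.00975% called higher, and the median change was -0.25 beside -0.02. With the run as a block Cdc45 joined Aurka in WT cells, beside 2.84% of all genes. In KO cells alone 0 passed in limma, beside 0.224% of all genes called lower. At an unadjusted p under 0.05 there were 4 lower and 0 higher, beside 3.8% of all genes lower and 1.56% higher. Of all 10258 tested genes the change was negative for 4775 in KO cells and for 5401 in WT cells. The median in KO cells was -0.10 beside 0.02. That KO median turned to 0.10 without KO 90 min replicate 3. After centring on the median of the tested genes, which moved all genes by 0.11 in WT cells, the medians were -0.082 in KO cells and -0.135 in WT cells. Values were negative in all 3 replicate numbers for 14 of 41 genes in KO cells, beside 16.5% of all genes, and for 16 of 41 in WT cells, beside 15.0%. The 3 arrays at 90 min and the 3 at 0 min did not overlap for 1 gene lower (6.22% of all genes) and 1 higher (5.64%) in KO cells. In WT cells they did not overlap for 6 genes lower (7.24%) and 0 higher (2.89%).

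In the group of mitotic kinases, which drive entry into and passage through mitosis, 1 of 3 tested genes passed. Aurka had log2 intensities of 4.94, 4.80 and 4.36 at 0 min, 4.67, 4.08 and 4.44 at 45 min, and 4.41, 4.43 and 3.65 at 90 min in KO cells. In WT cells Aurka had 5.08, 5.23 and 4.83 at 0 min, 4.53, 4.81 and 4.62 at 45 min, and 4.23, 4.04 and 4.11 at 90 min. The 3 WT arrays at 90 min lay below all 3 at 0 min, whereas in KO cells 2 of the 90 min values lay within the range at 0 min. Averaged over genotypes, Aurka fell by 0.73 ± 0.15 (SE; limma adjusted p = 0.0138), which leaves 60.4% of the starting signal. This call held in each of the 18 fits that left out 1 array (adjusted p 0.00820 to 0.0434) and with the run as a block (adjusted p = 0.00207). It was lost when arrays were centred on the median of the tested genes (adjusted p = 0.0506). In WT cells the fall was 0.92 ± 0.22 (adjusted p = 0.0454), leaving 52.8%, and in 12 of the 18 fits without 1 array it did not pass (adjusted p over the 18 fits 0.0147 to 0.195). Within run B it was -1.02 (adjusted p = 0.00528). In KO cells the change of Aurka was -0.53 ± 0.22 (adjusted p = 0.786), and -0.27 without KO 90 min replicate 3. Plk1, the polo-like kinase, changed by -0.50 ± 0.27 in WT and Aurkb, the kinase of the chromosomal passenger complex, by -0.18 ± 0.17, and neither passed. Within run B Plk1 passed in WT cells (-0.81, adjusted p = 0.0283), while in run A it differed by 0.12 in the other direction.

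Replication licensing and helicase genes load and fire origins of replication. All 8 tested genes of this group had negative values at 90 min in KO cells (median -0.11) and in WT cells (median -0.42). Cdc45 passed in the average over genotypes. Cdc45 had log2 intensities of 5.26, 5.06 and 4.65 at 0 min, 4.86, 4.62 and 4.56 at 45 min, and 4.55, 4.69 and 3.99 at 90 min in KO cells. In WT cells Cdc45 had 5.13, 5.08 and 4.94 at 0 min, 4.78, 5.003 and 4.63 at 45 min, and 4.36, 4.49 and 4.40 at 90 min. The WT groups at 0 and 90 min did not overlap, and the KO groups overlapped through 1 array. Averaged over genotypes Cdc45 fell by 0.61 ± 0.13 (adjusted p = 0.0189), leaving 65.5%. It passed in 14 of the 18 fits without 1 array and was lost without KO 90 min replicate 3, WT 90 min replicate 1, KO 0 min replicate 1 or KO 0 min replicate 2 (highest adjusted p 0.0568). It was also lost after centring on the median of the tested genes (adjusted p = 0.0790) and in a fit of only the 4 groups compared (adjusted p = 0.0650). The change was -0.58 ± 0.19 in KO cells (adjusted p = 0.471), or -0.37 without KO 90 min replicate 3, and -0.64 ± 0.19 in WT cells (adjusted p = 0.152, and 0.0225 with the run as a block).

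Cdt1 and Mcm2 belong to the same group. Cdt1, the factor that loads the helicase, had log2 intensities of 4.12, 4.27 and 3.65 at 0 min and 3.90, 4.27 and 3.83 at 90 min in KO cells. In WT cells Cdt1 had 4.55, 4.51 and 3.86 at 0 min and 4.01, 3.14 and 3.77 at 90 min. The WT value in run A was near the same at both times, so the WT change of -0.67 ± 0.25 (adjusted p = 0.313) was mostly that of run B, where it was -0.96 (adjusted p = 0.0177). Mcm2, a helicase subunit, had 5.92, 6.04 and 5.99 at 0 min and 5.83, 6.16 and 5.73 at 90 min in KO cells. In WT cells Mcm2 had 5.97, 6.42 and 5.91 at 0 min and 5.48, 5.51 and 5.86 at 90 min. The WT groups did not overlap, but the change in run A was -0.05, and the mean change was -0.48 ± 0.17 (adjusted p = 0.262). In run B alone Mcm2, Mcm5 and Mcm7 were lower in WT cells (-0.70, -0.65 and -0.71), but in run A Mcm5 and Mcm7 differed by 0.17 and 0.11 in the other direction.

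Genes that supply nucleotides and the replication clamp had 4 of 4 negative values in WT cells and 1 of 4 in KO cells. The largest in WT cells was Tyms, thymidylate synthase, at -0.39 ± 0.27. Pcna barely moved, at 0.01 ± 0.20 in KO cells and -0.02 ± 0.20 in WT cells. None of the 4 passed.

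G1 cyclins and kinases take cells from growth factor signals to the start of replication, and 9 of 9 were tested. Of these 0 passed at 90 min in the average over genotypes in limma (1 lower at an unadjusted p under 0.05, beside 8.33% of all genes lower and 1.68% higher), and 5 of 9 values were negative. Cdc25a, a phosphatase that releases CDK2 from its inhibitory phosphate, was the one with the largest change. It had log2 intensities of 4.58, 4.46 and 4.84 at 0 min, 3.92, 4.18 and 4.21 at 45 min, and 4.23, 4.22 and 4.24 at 90 min in KO cells. In WT cells it had 4.27, 4.81 and 4.52 at 0 min, 4.24, 4.29 and 3.97 at 45 min, and 4.25, 3.61 and 4.15 at 90 min. It was the only one of the 41 whose 3 arrays at 90 min lay below all 3 at 0 min in both genotypes, which held for 2.07% of all tested genes. For 0 of the 41 they lay above in both, beside 0.214% of all genes. The average change was -0.47 ± 0.13 (adjusted p = 0.0776, and 0.0420 with the run as a block). E2f1, the only E2F factor tested, changed by 0.34 ± 0.22 in KO cells and -0.20 ± 0.22 in WT cells. The changes of the 3 D cyclins, of Cdk4 and of Cdk6 lay between -0.21 and 0.19 in either genotype, and none passed.

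Of the 5 spindle checkpoint genes, which hold chromosomes back until all are attached, 5 of 5 were negative at 90 min in KO cells and 4 of 5 in WT cells. Bub1b, which encodes the checkpoint protein BubR1, had log2 intensities of 5.15, 5.30 and 4.49 at 0 min, 4.78, 4.71 and 4.66 at 45 min, and 4.64, 4.73 and 4.004 at 90 min in KO cells. In WT cells it had 5.35, 5.25 and 5.02 at 0 min, 5.01, 4.95 and 5.07 at 45 min, and 4.90, 4.87 and 4.64 at 90 min. Each array number was lower at 90 than at 0 min in both genotypes. The average change was -0.46 ± 0.15 (adjusted p = 0.144). With the run as a block it passed (adjusted p = 0.0224), and within run B it was -0.48 (adjusted p = 0.0194), where 3.24% of all genes were called lower in this comparison and 2.11% higher. Of 4 tested G2 and mitotic cyclins, Cdk1 and phosphatases 0 passed, and the largest average change was that of Ccna2, cyclin A2, at -0.40 ± 0.22. Of the 7 kinetochore, spindle and chromosome genes 0 passed, and Mki67, the proliferation antigen Ki-67, had the largest average change at -0.33 ± 0.27.

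**Figure D2:**
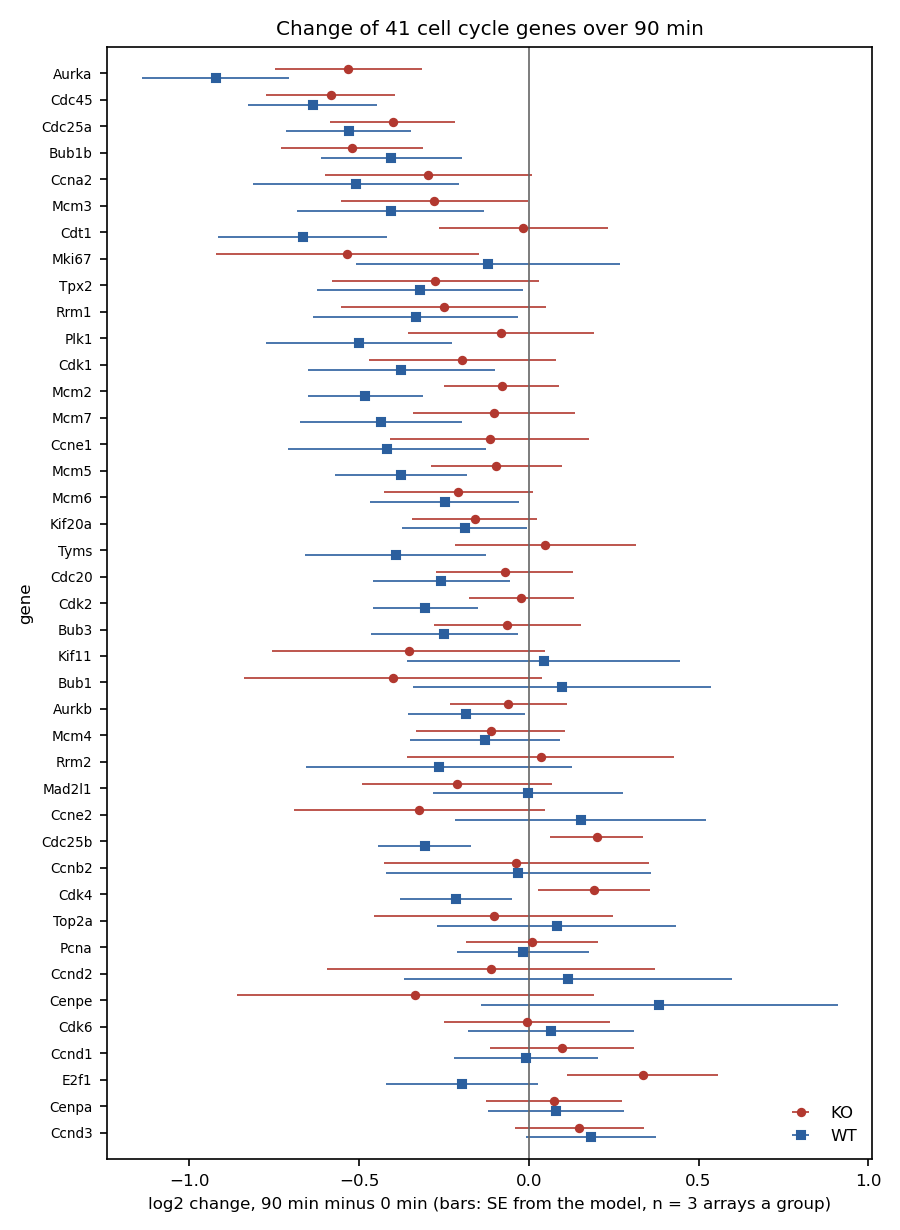
Log2 change at 90 min minus 0 min (horizontal axis) for the 41 tested genes (vertical axis, ordered by the average of both genotypes, lowest at the top), KO above WT for each gene; bars are the model's SE, n = 3 arrays a group. Aurka and Cdc45 lie at the top, at -0.53 and -0.58 in KO cells and at -0.92 and -0.64 in WT cells.

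**Figure D3:**
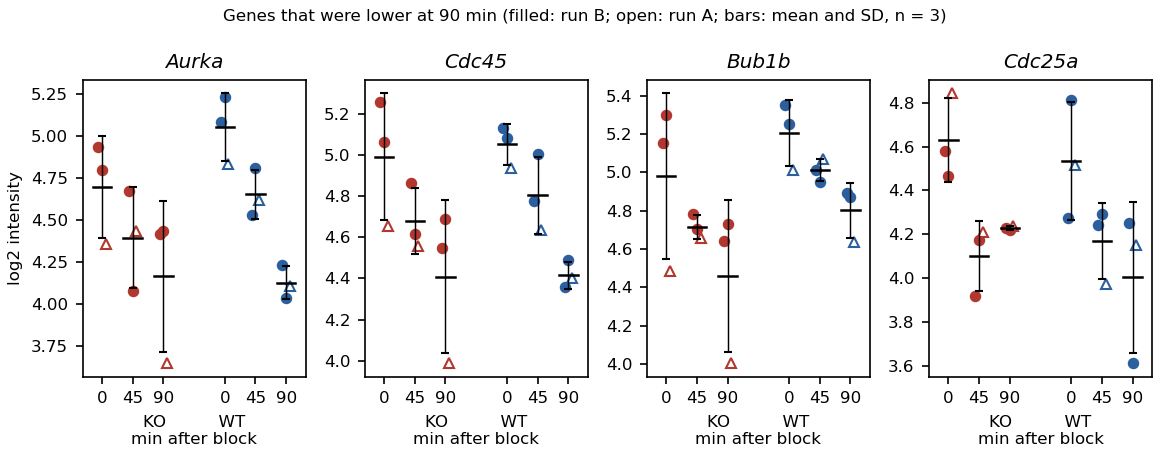
Log2 intensity (vertical axis) of Aurka, Cdc45, Bub1b and Cdc25a in each array at 0, 45 and 90 min after the block (KO left, WT right); black lines are means with SD (n = 3), filled points run B and open triangles run A. For Aurka the 3 WT values at 90 min, 4.04 to 4.23, lie under the 3 at 0 min, 4.83 to 5.23.

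At 45 min against 0 min 0 of the 41 passed in either genotype in limma. At an unadjusted p under 0.05 there were 1 lower and 1 higher in KO cells, beside 3.86% of all genes lower and 1.4% higher. In WT cells there were 3 lower and 0 higher, beside 2.51% and 1.38%. The share of all tested genes called lower was 0.0487% in KO cells and 0.127% in WT cells. Within run B 2 of 41 were higher in WT cells at 45 min, Cenpe and Kif11, beside 2.13% of all genes, and both were lower in run A. Groups at 45 and 0 min did not overlap for 1 gene lower (7.89% of all genes) and 1 higher (5.27%) in KO cells, Cdc25a and Cdc25b. In WT cells they did not overlap for 3 lower (6.67%), Cdk2, Cdc25b and Aurka, and 0 higher (3.28%). Cdk2, the kinase of the G1 to S step, had the largest decrease in WT cells by value, -0.63 ± 0.15 (adjusted p = 0.268). The 3 WT arrays of Cdk2 at 45 min (5.61, 5.53 and 5.54) lay below those at 0 min (6.41, 6.21 and 5.94). At 90 min the WT values of Cdk2 were 5.99, 5.76 and 5.90, so its groups at 0 and 90 min overlapped by 1 array. Cenpe had the largest increase in WT cells at 45 min by value, 0.72.

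Whether loss of the RNA over 90 min differed between KO and WT cells is the question that the design puts to each gene, and for these 41 genes no difference passed. The count was 0 in limma, beside 0.0195% of all tested genes called higher. At an unadjusted p under 0.05 there were 0 lower and 1 higher, beside 0.946% of all genes lower and 1.73% higher. The median of the difference, the KO change minus the WT change, was 0.11 beside 0.04 over all genes. It was -0.021 after centring on ribosomal protein genes and -0.036 without KO 0 min replicate 3, so its sign is not settled. For Aurka the difference was 0.39 ± 0.31, with a 95% interval from -0.26 to 1.04, and for Cdc45 it was 0.05 ± 0.27, with an interval from -0.51 to 0.62. These intervals hold differences as large as the WT falls themselves, or nearly so, and they do not show that the genotypes act alike.

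The smallest unadjusted p was that of Cdc25b, a phosphatase that activates CDK1 on entry into mitosis, whose values at 0 min stood apart in both genotypes. Cdc25b had log2 intensities of 3.86, 3.63 and 3.82 at 0 min, 4.11, 4.10 and 4.07 at 45 min, and 4.05, 3.92 and 3.95 at 90 min in KO cells. In WT cells it had 4.29, 4.63 and 4.14 at 0 min, 4.02, 3.91 and 3.93 at 45 min, and 4.11, 4.01 and 4.02 at 90 min. The KO arrays at 0 min were below all other arrays, the WT arrays at 0 min were above all others, and the genotypes lay close together at 45 and 90 min. The difference was 0.51 ± 0.19 (95% interval 0.10 to 0.92, adjusted p = 0.999). It was the 1 gene of the 41 whose arrays at 90 min were all above those at 0 min in KO cells, while in WT cells they were all below. At 0 min the KO minus WT difference of Cdc25b was -0.58 ± 0.14 (adjusted p = 0.243). The 0 min arrays enter both values, so they are not independent.

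Between KO and WT cells at 0 min, after LPS and before the block took effect, 0 of 41 passed in limma, and 0% of all tested genes were called lower. At an unadjusted p under 0.05 there were 5 of 41 lower and 0 higher, beside 3.8% of all genes lower and 3.77% higher. The groups did not overlap for 5 genes, Cdk4, Mcm6, Tyms, Ccna2 and Cdc25b, all lower in KO cells, beside 7.14% of all genes lower and 3.15% higher. The median difference was -0.27 beside 0.00 over all genes, and 31 of 41 were negative, beside 5142 of the 10258 tested genes. By replicate number the medians were -0.05, -0.33 and -0.54, with 23, 29 and 35 of 41 negative, and within run B the median was -0.13. After centring on 54 ribosomal protein genes, which moved the median of all genes by 0.25, the median of the 41 was -0.01 with 21 negative. Over all 3 times together 0 of 41 passed, beside 0.448% of all genes called lower and 0.877% called higher. At an unadjusted p under 0.05 there were 9 of 41 lower and 1 higher, beside 5.18% of all genes lower and 6.42% higher. The median was -0.19 beside 0.01, and ribosomal centring, which moved all genes by 0.17, brought it to -0.02. By replicate number the medians were -0.02, -0.11 and -0.44, and the largest was that of run A; within run B the median was -0.09. Markers of cell types moved with genotype too. Of the 8 macrophage markers 2 were higher in KO cells over all times, Mertk by 0.76 ± 0.10 (adjusted p = 0.000660) and Fcgr1 by 0.38 ± 0.09 (adjusted p = 0.0496), and 0 were lower. By sign 5 of the 8 were higher and 3 lower, and at an unadjusted p under 0.05 there were 4 higher and 1 lower. Cd14 went the other way, with group means of 10.15 to 10.21 in KO cells and of 10.33 to 10.56 in WT cells. Cd34, the 1 marrow progenitor marker past the limit, had group means of 2.51 to 2.79 in KO cells, below the limit, and of 3.24 to 3.71 in WT cells. The part of these markers in the difference was not tested.

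With the run as a block 4 of 41 passed over all times, beside 1.70% of all genes lower and 3.12% higher: Ccnd2, Ccnb2 and Rrm1 were lower in KO cells and Ccne1 was higher. Ccnd2 (chr6:127125162-127152188) encodes cyclin D2, which couples growth factor signals to CDK4 and CDK6. It had log2 intensities of 6.49, 6.55 and 5.43 at 0 min, 6.51, 6.48 and 5.74 at 45 min, and 6.24, 6.51 and 5.38 at 90 min in KO cells. In WT cells it had 6.92, 7.13 and 5.84 at 0 min, 7.38, 7.32 and 5.86 at 45 min, and 7.25, 7.19 and 5.79 at 90 min. In every group the run A array was the lowest, and within each run and time the KO arrays were lower than the WT arrays. The difference was -0.60 ± 0.28 without the block (adjusted p = 0.425), and with it the SE was 0.09 and the adjusted p 0.000493. Within run B it was -0.74 (adjusted p = 0.000283), where it was the only one of the 41 to pass, beside 0.946% of all genes called lower, and in run A it was -0.31.

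Ccne1 (chr7:38097984-38107490) encodes cyclin E1, the partner of CDK2 at the start of replication. Its log2 intensities were 5.66, 6.05 and 5.37 at 0 min, 5.61, 5.85 and 5.34 at 45 min, and 5.86, 5.87 and 5.004 at 90 min in KO cells. In WT cells they were 5.21, 5.96 and 5.11 at 0 min, 5.22, 5.43 and 4.90 at 45 min, and 5.28, 5.28 and 4.47 at 90 min. Each KO array was above the WT array of the same number and time. The difference was 0.42 ± 0.17 (adjusted p = 0.325, and 0.0253 with the block), and by number it was 0.47, 0.37 and 0.41. Within run B alone it did not pass (adjusted p = 0.0705).

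Ccnb2 encodes cyclin B2, a partner of CDK1 in mitosis. Its log2 intensities were 6.68, 6.37 and 5.39 at 0 min, 6.55, 6.37 and 5.94 at 45 min, and 6.73, 6.35 and 5.25 at 90 min in KO cells. In WT cells they were 6.75, 6.90 and 6.36 at 0 min, 6.77, 6.94 and 6.41 at 45 min, and 6.77, 7.27 and 5.87 at 90 min. The difference was small for replicate 1 (-0.11) and larger for replicates 2 and 3 (-0.68 and -0.69), with a mean of -0.49 ± 0.23 (adjusted p = 0.410, and 0.0209 with the block). Within run B it was -0.39 (adjusted p = 0.0626).

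Rrm1 (chr7:102441695-102469771), the large subunit of ribonucleotide reductase, had log2 intensities of 8.32, 8.21 and 7.40 at 0 min, 7.93, 8.002 and 7.45 at 45 min, and 8.12, 8.08 and 6.98 at 90 min in KO cells. In WT cells it had 8.47, 8.54 and 8.02 at 0 min, 8.16, 8.29 and 7.96 at 45 min, and 8.10, 8.34 and 7.60 at 90 min. The run A arrays were the lowest in each group, and more so in KO cells. The difference was -0.33 ± 0.17 (adjusted p = 0.490, and 0.0438 with the block), and within run B it did not pass (adjusted p = 0.200). For Ccnd2, Ccnb2, Ccne1 and Rrm1, 0 of the 18 fits without 1 array and without the block passed.

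**Figure D4:**
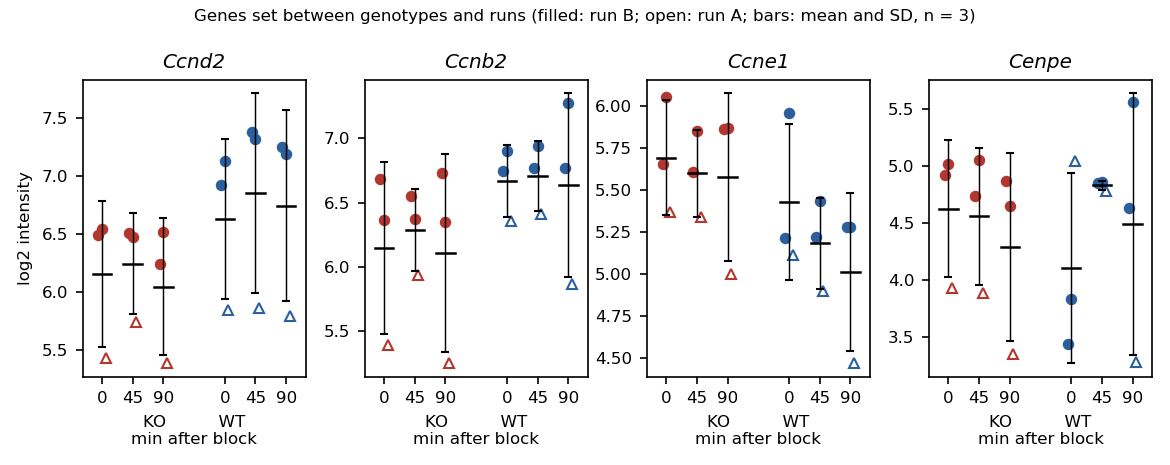
Log2 intensity (vertical axis) of Ccnd2, Ccnb2, Ccne1 and Cenpe in each array at 0, 45 and 90 min after the block (KO left, WT right); black lines are means with SD (n = 3), filled points run B and open triangles run A. For Ccnd2 the run A array is the lowest in every group, and for Cenpe it is the highest in WT cells at 0 min (5.04) and the lowest there at 90 min (3.29).

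The genes of this group were on balance higher in run B than in run A. The mean difference over the 6 groups, run B minus run A, had a median of 0.33 over the 41 genes and of -0.08 over all tested genes. Both run B arrays were above the run A array in all 6 groups for 7 of 41, beside 4.48% of all genes, and the reverse held for 0 of 41, beside 7.03%. The 7 were Ccnd2 (mean difference 1.16), Rrm2, the small subunit of ribonucleotide reductase (0.90), Ccnb2 (0.83), Rrm1 (0.64), Ccne1 (0.58), Bub3 (0.44) and Cenpa, the centromeric histone (0.34). The medians over the 41 genes were 0.49, 0.34 and 0.71 in KO cells at 0, 45 and 90 min, and 0.17, 0.05 and 0.25 in WT cells. The 2 runs were compared as a description after their values were seen, with no test.

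Some genes showed the opposite order of the runs in WT cells at 0 min, and those with the largest differences are named. Run B minus run A had a median of 0.17 over the 41 genes in this group and of -0.11 over all tested genes. Cenpe, a kinesin that attaches chromosomes to the spindle, had log2 intensities of 4.92, 5.01 and 3.94 at 0 min, 4.74, 5.05 and 3.89 at 45 min, and 4.87, 4.65 and 3.35 at 90 min in KO cells. In WT cells it had 3.44, 3.84 and 5.04 at 0 min, 4.85, 4.86 and 4.78 at 45 min, and 4.63, 5.56 and 3.29 at 90 min. The WT 0 min arrays of run B were low and that of run A high, so that the WT change at 90 min was 1.19 and 1.72 in run B and -1.76 in run A. Kif11, the kinesin that separates spindle poles, Bub1, a checkpoint kinase, Top2a, the topoisomerase that untangles chromosomes, and Mki67 showed the same order at WT 0 min, with run B minus run A values of -1.51, -1.19, -0.82 and -1.23. Ccne2 did so too (-1.36). Smaller negative values were those of Mcm4 (-0.66), Pcna (-0.44) and Cdk6 (-0.36), among others. Within run B, 11 of 41 genes passed in WT cells at 90 min. Bub1, Cenpe, Kif11 and Top2a were higher, and 7 were lower (Aurka, Cdc45, Cdt1, Mcm2, Mcm5, Mcm7 and Plk1), beside 7.46% of all genes higher and 5.98% lower. Of the 11, 4 had the same sign in run A, namely Aurka, Cdc45, Cdt1 and Mcm2, and the 4 higher ones had the opposite sign. Between KO and WT cells at 0 min, 6 passed within run B: Mcm7 and Cdc25b were lower in KO cells, and Bub1, Cenpe, Kif11 and Mki67 were higher, with the opposite sign of all 4 in run A. In that comparison 0.985% of all genes were lower and 8.19% higher. In the average over genotypes the 3 that passed within run B, Aurka, Cdc45 and Bub1b, were all negative in run A too.

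**Figure D5:**
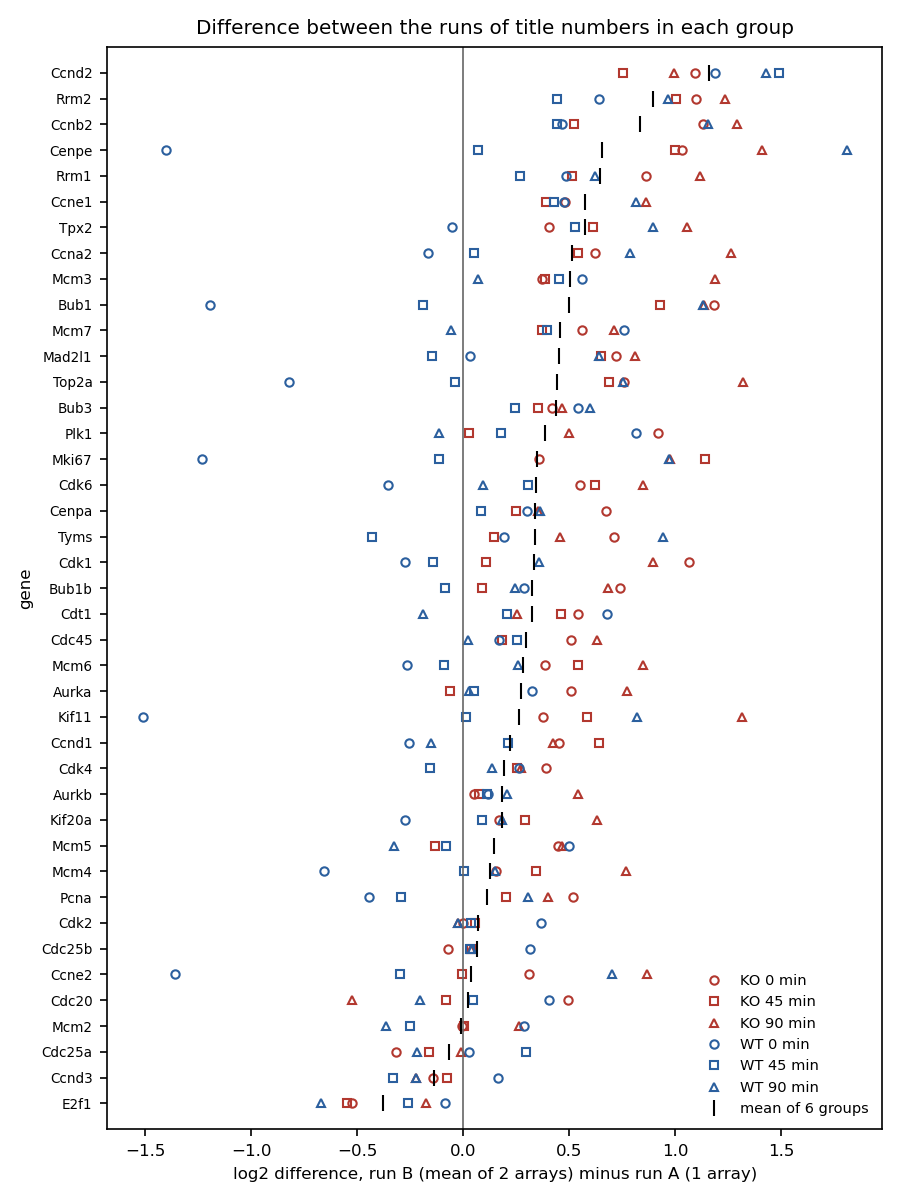
Log2 difference between the runs of title numbers, run B (mean of 2 arrays) minus run A (1 array), for the 41 genes (vertical axis, ordered by the mean) in each of the 6 groups; black ticks are the mean of the groups. Ccnd2 lies at the top with a mean of 1.16, and the WT 0 min values of Cenpe, Bub1, Kif11 and Mki67 lie between -1.51 and -1.19, on the other side of 0 from most of their other groups.

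Other genes of the same pathways were taken from 10 lists of 156 genes, of which 151 had a row and 140 were tested. In the average over genotypes at 90 min 3 of 140 were called lower and 0 higher, beside 2.28% of all tested genes called lower. Of these 3, Fbxo5 and Ccnf are set aside below, which leaves Chek2. The change was negative in 103 of 140, beside 4662 of the 10258 tested genes, with a median of -0.11. Of the 140, 9 had a group mean below the signal limit of 3.03, among them Fbxo5, Ccnf and Gmnn. These passed the limit only through the groups where they were high, so the values of Fbxo5, Ccnf and Gmnn are given with no test. Fbxo5, which encodes the inhibitor of the anaphase-promoting complex EMI1, had log2 intensities of 3.61, 4.13 and 3.65 at 0 min and 2.24, 2.58 and 1.95 at 90 min in KO cells. In WT cells Fbxo5 had 2.89, 2.86 and 3.87 at 0 min and 2.56, 2.26 and 1.82 at 90 min. Its group means were above the limit at 0 min (3.80 in KO cells and 3.21 in WT cells) and below it at 45 and 90 min in both genotypes. Ccnf, cyclin F, had 3.67, 3.47 and 3.67 at 0 min and 2.49, 3.32 and 2.88 at 90 min in KO cells. In WT cells Ccnf had 4.04, 3.82 and 4.14 at 0 min and 2.42, 2.84 and 3.02 at 90 min. Its 90 min arrays were below the limit in 5 of 6 cases. Gmnn, which blocks Cdt1, had 2.86, 3.38 and 2.87 at 0 min and 2.97, 2.83 and 2.39 at 90 min in KO cells. In WT cells Gmnn had 3.35, 3.05 and 3.57 at 0 min and 2.68, 2.85 and 2.88 at 90 min. Chek2, a kinase of the DNA damage response, fell by 0.52 ± 0.13 (adjusted p = 0.0366), a call kept in 8 of the 18 fits without 1 array.

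In WT cells alone and in KO cells alone none of the 140 passed, leaving aside Ccnf and Fbxo5, which are given with no test. In the 8 lists that do not hold Fbxo5, Ccnf or Chek2 none passed in either genotype or in the average. In each of them the gene with the smallest p of these 3 comparisons is named with its change in that comparison, except Gmnn, given above with no test. In the average these were Cdkn1b, an inhibitor of CDKs (-0.65 ± 0.23), E2f3 (-0.50 ± 0.13), Ncapd3, of condensin (-0.47 ± 0.17), and Zw10, of the kinetochore (-0.40 ± 0.12). In WT cells they were Mybl2, which encodes B-MYB (-0.52 ± 0.20), Tk1, thymidine kinase (-0.40 ± 0.18), and Kif22, a chromosome-bound kinesin (-0.53 ± 0.17). In KO cells Mybl2 and Kif22 had values of 0.26 ± 0.20 and 0.09 ± 0.17. Of the genes picked in the average, Cdkn1b, E2f3 and Zw10 were lower with the run as a block (adjusted p = 0.00696, 0.0195 and 0.0278). Ncapd3 was not called (adjusted p = 0.146). Under that rule 4.39% of all tested genes were called lower in the average. All 16 mitotic kinesins and cytokinesis genes tested had negative values in the average, beside 4662 of the 10258 tested genes. Their median was -0.22, and 0 passed in limma (1 lower at an unadjusted p under 0.05, beside 8.33% of all genes). Over all times 0 of the 140 passed between KO and WT cells (19 lower and 3 higher at an unadjusted p under 0.05, beside 5.18% and 6.42% of all genes), with a median of -0.08.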

How the data were processed

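The authors deposited linear intensities per array row, made with RMA in Affymetrix Expression Console per the submitters' processing notes; no build is given in the sources used here. Rows were named through the platform's gene table, the brightest row was kept per symbol (19454 genes), and log2 was taken with no offset. A gene was tested if its highest group mean was at least 3.03, the median of row means (10258 genes). The groups were fitted together with limma (version 3.58.1, R 4.3.3), with 8 contrasts and Benjamini-Hochberg adjustment over all tested genes at 0.05. The fit was also tried on simulated data with independent noise in each array and changes only in WT cells at 90 min. Those data hold no difference between runs, so they do not check the calls against one. The number of arrays limits the precision. Alternatives were 11 settings and 18 omissions of 1 array. Replicate numbers were taken to pair samples in 4 of the 8 comparisons (KO 90 min, KO 45 min, WT 45 min, KO against WT at 0 min), where samples of the same number deviated together in each pair (every correlation over 0.1). The values given without a block do not use this pairing in any comparison. It enters only the alternative fit with a replicate block. Samples of the same number also share a run in all 8 comparisons, and the part of the run in these correlations was not tested. The members and lists were chosen with earlier results of these data known. Values in every array are given for members past the threshold without a block or with either block, then for those of smallest p in the average over genotypes, up to 10, and, chosen after their values were seen, for Cdc25b and Cenpe. Within each role the gene with the largest average change is named, and in each other list those that passed or the smallest p.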

Additional observations from a re-analysis of the deposited data

How the results depend on the processing

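The number of the 41 genes past the threshold moved as follows. For WT at 90 min (1 in the analysis as reported) it was 2 with a replicate block, 2 with the run as a block, 11 within run B, and 0 with no filter on low signal, with arrays centred on the median, with arrays centred on ribosomal protein genes, or with only the groups of the comparison in the fit; leaving out 1 array gave 0 to 1. For both genotypes at 90 min (2) it was 4 with the run as a block, 3 with a replicate block, 0 with median centring and 1 with only the groups of the comparison, and 1 to 3 without 1 array. For WT at 45 min (0) it was 2 within run B and 0 to 1 without 1 array, and for KO against WT at 0 min (0) it was 6 within run B and 0 to 1 without 1 array. For KO against WT over all times (0) it was 3 with a replicate block, 4 with the run as a block, 1 within run B and 1 with ribosomal centring. KO at 90 min, KO at 45 min and the decay difference stayed at 0 throughout. The median change of KO at 90 min ranged from -0.29 to 0.10 without 1 array and was positive (0.10) without KO 90 min replicate 3. The median decay difference was 0.016 with median centring and -0.021 with ribosomal centring; it ranged from -0.036 to 0.30 without 1 array and was negative without KO 90 min replicate 2 (-0.035), WT 90 min replicate 3 (-0.013) or KO 0 min replicate 3 (-0.036). The medians of WT at 90 min (-0.31 to -0.13) and of both genotypes at 90 min (-0.25 to -0.08) stayed negative without any 1 array. Each of these fits still holds other arrays of run A, so they do not show how much of the fall is that of run A. For replicates 1, 2 and 3 taken singly, the median of both genotypes was -0.003, -0.07 and -0.34. In the 4 comparisons where replicate numbers pair the samples, the replicate block changed no call of the 41 genes; in the others the samples share only a number. The cause of these changes was not tested. Genes near the limit of 3.03 have little signal over background, and their falls are bounded by it.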
